A study of Mus musculus with 4 samples.

Results

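The p21-activated kinases (PAKs) are serine/threonine kinases that act downstream of the small GTPases Rac and Cdc42. Their transcripts were examined in mouse mammary tumor cells labeled Pak1-/- or Pak1+/+. Members were all non-control probes on the array that carried the gene name Pak1, Pak2, Pak3, Pak4, Pak6 or Pak7, which gave 8 probes of 6 genes among 39429 probes. Pak7 is the gene now also called Pak5, and it was read by 3 probes, while each other gene had 1. The cells were lines derived from tumors of MMTV-Neu mice, a model in which the promoter of the mouse mammary tumor virus drives the Neu oncogene (Her2, gene Erbb2) in mammary epithelium. The labels put 2 samples in a Pak1-/- group and 2 in a Pak1+/+ group. All 4 carried the Neu transgene and were grown in low calcium medium with horse serum, kept without serum for 3 h and then treated with EGF for 15 min. Cells without EGF were not analysed here. The series design describes 2 different tumors per group, and the 2 samples of a group were taken as its replicates. If the replicates were instead repeat cultures of 1 tumor, the p-values would measure only a technical spread. Total RNA was hybridized in a single color to an Agilent array of 60-base probes. In such bulk RNA, fewer cells of a type and less RNA per cell cannot be told apart.

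Group I PAKs (Pak1, Pak2 and Pak3) are held inactive as dimers by their own autoinhibitory segment, and binding of GTP-loaded Rac or Cdc42 releases the kinase. Group II PAKs (Pak4, Pak5 and Pak6) also bind Cdc42 but are regulated in a different way. In epithelial tumor cells the family is known for its part in cytoskeletal turnover, motility and signaling from ErbB2 to the MAP kinase cascade, while Pak3 and Pak5 are best known from the nervous system.

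All signals depend on what each probe binds, so the first 30 bases of each of the 8 probes are shown, in lower case and 5′ to 3′. Capitals mark a run of at least 20 alternating T and G letters, found only in the Pak4 probe among these. Positions are those given in the scanner files, on mm9. The exon or untranslated region in which each probe lies was not annotated in the sources used here.
Pak1, A_52_P663600, chr7:105060220-105060279, plus strand: ctgatcctgacatgggagaacgaccatgtt
Pak2, A_51_P172323, chr16:32018180-32018239, minus strand: cggcttgtccacacagaagcagtctggggt
Pak3, A_55_P2022569, chrX:140226257-140226316, plus strand: caaaatcccttacccaacgtgatgtttttt
Pak4, A_55_P2117731, chr7:29344311-29344370, minus strand: acgacactatgagaaaggtTGTGTGTGTGT
Pak6, A_55_P2039556, chr2:118522911-118522970, plus strand: agcagccaggggggaatcttctgagagaga
Pak7, A_55_P2117699, chr2:135907633-135907692, minus strand: aggagagttgtgctgctgtctcgatcttcc
Pak7, A_55_P2117704, chr2:135906824-135906883, minus strand: attggcagaagctgcaccacaaataaagta
Pak7, A_55_P2183979, chr2:136213398-136213457, minus strand: aacagatgtagcagcagcggagaagcagat
The TG run of the Pak4 probe starts at base 20 and is 38 bases long. Of the Pak7 probes, the first 2 listed are separated by 749 bases, and the third lies far upstream in the gene, with 306.6 kb spanned by all 3.

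The arrays were alike in quality. Between 62.2% and 70.4% of the probes were well above background on an array, and the lowest correlation within a group across probes was 0.997, against a highest correlation of 0.959 between groups. Each PAK probe was printed as a single spot. Probes printed at least 5 times had a median within-array SD of 0.12 to 0.14 log2, which is the error to be expected of a single spot. The within-group SDs of the tested PAK probes were 0.0020 to 0.17 (n = 2 each), and most were no larger than this error. All arrays were on 1 slide, with Pak1-/- in the first 2 positions and Pak1+/+ in the last 2, so position and genotype cannot be told apart. Levels below are normalized log2 intensities, and differences are Pak1-/- minus Pak1+/+ on that log2 scale.

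The family showed a small set of changes. Pak6 was 1.89-fold and Pak3 1.33-fold higher in Pak1-/- cells, both past an adjusted p of 0.05 in limma, and no PAK probe was lower past it. Pak1, Pak2, Pak4 and the 2 tested Pak7 probes did not pass. In all, 2 of the 7 tested probes passed the threshold (28.6%), while 51.9% of all 27229 probes tested did. Over all probes, 23.3% were higher and 28.6% lower in Pak1-/- past the threshold. Both PAK calls were rises, so the PAK share fell short of the array among lower calls and not among higher ones. With 7 probes such shares are rough. At an unadjusted p under 0.05 the limma calls were 3 higher, with Pak1 added, and 0 lower, while 58.5% of all probes were called at that threshold. Values of the 2 genotypes were fully apart for 4 of the 7 tested PAK probes (57.1%), against 78.2% of the probes with values on every array. The eighth probe, of Pak7, was too dim to be tested. The median difference of the 7 probes was 0.017, against −0.05 over all probes.

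**Figure D1:**
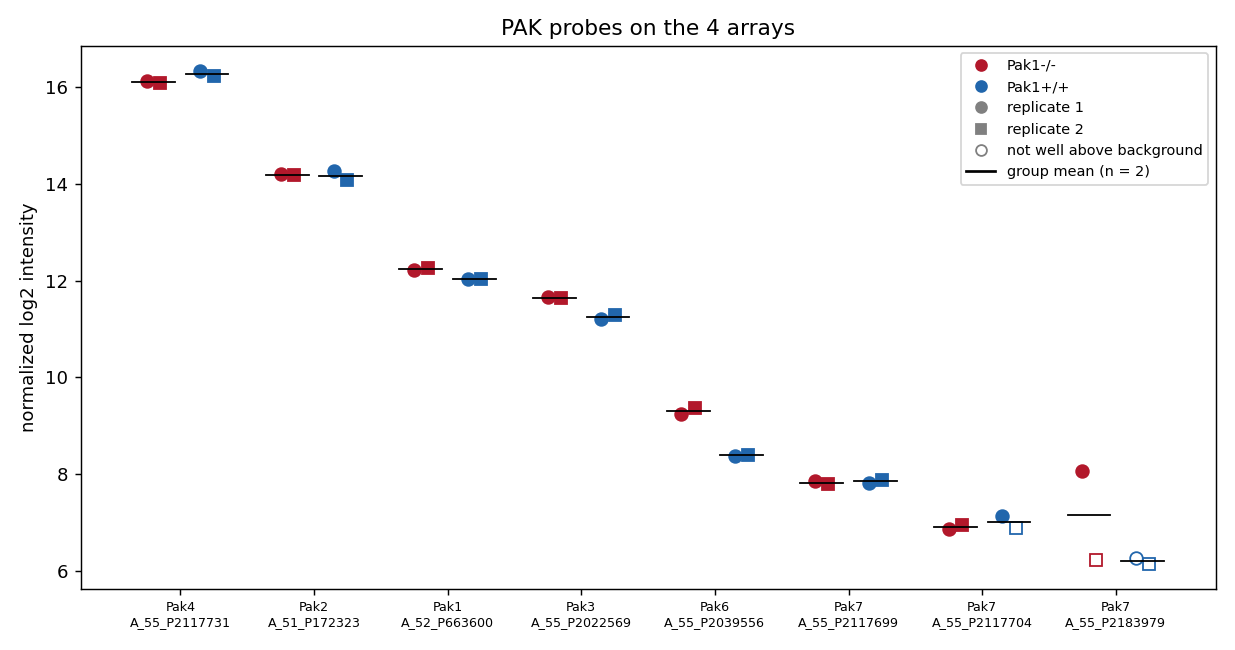
Normalized log2 intensity (y axis) of the 8 PAK probes (x axis, ordered by mean signal) on each of the 4 arrays, with group means as lines. Red marks Pak1-/- and blue Pak1+/+, and open symbols are spots not well above background. The genotypes do not overlap for Pak6, Pak3, Pak1 and Pak4, of which only Pak6 and Pak3 passed the threshold. The last Pak7 probe is raised on 1 array only.

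To check the labels, the targeted gene was examined first. The Pak1 probe read 12.21 and 12.25 in the arrays labeled Pak1-/- and 12.04 and 12.04 in those labeled Pak1+/+. The raw spot intensities were 4547 and 5069 against 4311 and 4077, over a local background of 39.0 to 47.0. The probe was thus bright on every array, and the arrays labeled Pak1-/- were slightly above the others. The group means were 12.23 ± 0.03 and 12.04 ± 0.0020 (SD, n = 2 each), a difference of 0.19 (SE 0.07, 95% interval 0.01 to 0.37, limma adjusted p = 0.070). A loss of signal in Pak1-/- lay outside this interval. Which part of Pak1 the knockout allele removes is not given in the sources used here. Whether the probe lies inside it cannot be told here, so the probe does not check the labels, and every direction below rests on them. With cyclic loess normalization the Pak1 difference was 0.27 and passed (adjusted p = 0.027, range 0.027 to 0.24 over the alternatives).

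Pak2, the group I kinase found in most tissues, did not differ detectably. It read 14.20 and 14.18 in Pak1-/- and 14.27 and 14.07 in Pak1+/+, and the values of one group fell inside those of the other. The difference was 0.017 (SE 0.09, interval −0.23 to 0.27, limma adjusted p = 0.90), and its sign turned with 75th-percentile scaling. Folds beyond 0.85 and 1.20 lay outside the interval. By the software's flag, 2 of the 4 Pak2 values were scaled up from the scan at lower sensitivity, those of Pak1-/- replicate 2 and Pak1+/+ replicate 1, which were also the 2 brightest raw spots (19247 and 20603).

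Pak3, the third group I kinase, was higher in Pak1-/- cells. It read 11.67 and 11.63 in Pak1-/- and 11.20 and 11.28 in Pak1+/+, and the groups did not overlap. The means were 11.65 ± 0.03 and 11.24 ± 0.06 (SD, n = 2 each), a difference of 0.42 (SE 0.07, interval 0.23 to 0.61, limma adjusted p = 0.0090). Over all tested probes 41.2% had a larger absolute difference. Without Pak1+/+ replicate 1 the difference was 0.38 and no longer passed (adjusted p = 0.057, with alternatives ranging from 0.0048 to 0.057).

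Pak4, the ubiquitous group II kinase, had the brightest PAK probe. It read 16.13 and 16.09 in Pak1-/- and 16.34 and 16.22 in Pak1+/+, which placed it at the 96.6th to 97.0th percentile of the probes of an array. The groups did not overlap, but the difference of −0.17 (SE 0.08, interval −0.38 to 0.04) did not pass (limma adjusted p = 0.13). Normexp values scaled to the 75th percentile gave −0.32 (adjusted p = 0.025, against 0.47 for the alternative with the highest value). No Pak4 spot was saturated, though all 4 were scaled up from the lower-sensitivity scan.

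Since the Pak4 probe holds the TG run shown above, all probes were searched on their own strand for at least 20 alternating T and G letters. This search was chosen after the sequence had been seen. It found 52 probes (0.132% of all), and the same search for C and A, the run on the opposite strand, found 24 (0.0609%). All 52 TG probes were well above background on every array, with a median percentile of 96.0 and quartiles of 93.4 and 97.6. Of all probes, 60.3% were well above background on every array. The difference was negative for 51 of the 52, with a median of −0.21 and quartiles of −0.31 and −0.11, and 24 passed as lower and 0 as higher in limma (0 higher also at an unadjusted p under 0.05). Over all tested probes the median was −0.05, and 28.6% passed as lower and 23.3% as higher. The 24 CA probes had positive differences throughout, with a median of 0.47 and quartiles of 0.43 and 0.52. Of these 0 passed in limma (6 at an unadjusted p under 0.05), against 51.9% (58.5%) of all tested probes. The Pak4 probe was therefore within the range of the other TG probes in both brightness and difference. How much of its signal came from Pak4 transcript was not tested.

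**Figure D2:**
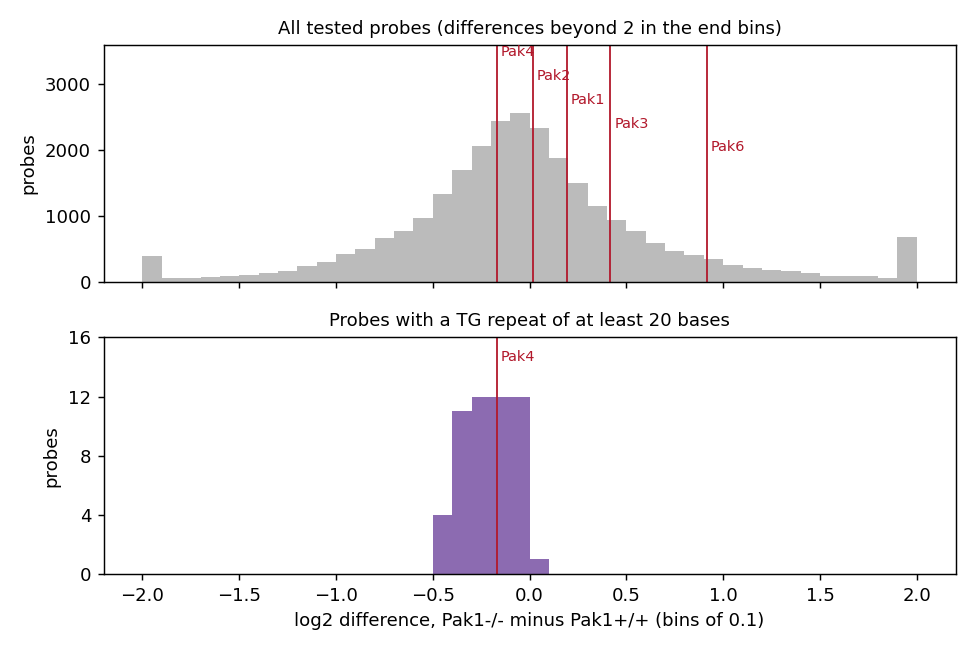
Counts of probes (y axis) by log2 difference between Pak1-/- and Pak1+/+ (x axis, bins of 0.1), for all 27229 tested probes above and for the 52 probes with a TG repeat below. Red lines mark PAK probes, and the Pak4 probe falls at −0.17, inside the distribution of the repeat probes.

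Pak6, a group II kinase first described as a partner of the androgen receptor, showed the largest difference of the tested PAK probes. It read 9.25 and 9.37 in Pak1-/- and 8.38 and 8.40 in Pak1+/+, and both Pak1-/- arrays were above both Pak1+/+ arrays. The raw intensities were 598 and 664 against 316 and 314, or 13.8 and 14.9 times the local background against 8.91 and 8.97 times. The means were 9.31 ± 0.08 and 8.39 ± 0.01 (SD, n = 2 each), a difference of 0.91 (SE 0.08, interval 0.71 to 1.12, limma adjusted p = 0.0012). The fold was 1.89, with an interval of 1.64 to 2.17. Over the alternatives the log2 difference ranged from 0.85, without Pak1-/- replicate 2, to 1.18, with processed signals scaled to the 75th percentile. The latter lay above the interval. The call was kept in every alternative tried, with adjusted p from 0.00063 to 0.0091. It was not an extreme change for these arrays, as 15.1% of all tested probes had a larger absolute difference. The software's flag for a spot located on the image was set on only 1 of the 4 arrays for this probe, Pak1-/- replicate 2.

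Pak7 (Pak5), the third group II kinase, was dim and read differently by its 3 probes. The probe A_55_P2117699 read 7.86 and 7.80 in Pak1-/- and 7.81 and 7.89 in Pak1+/+, and was well above background on all 4 arrays. Its difference was −0.024 (SE 0.07, interval −0.22 to 0.17, limma adjusted p = 0.81), and the groups overlapped. The neighboring probe A_55_P2117704 read 6.86 and 6.94 in Pak1-/- and 7.13 and 6.88 in Pak1+/+, with the last of these not well above background. Its difference was −0.11 (SE 0.11, interval −0.39 to 0.18, adjusted p = 0.45), and again the groups overlapped. The upstream probe A_55_P2183979 was well above background on Pak1-/- replicate 1 only, at 8.07, and read 6.23 in the other Pak1-/- array and 6.26 and 6.14 in Pak1+/+. The raw spot on that array was 258, against 56.8 to 72.4 on the others. Neither of the other Pak7 probes was raised on that array.

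**Figure D3:**
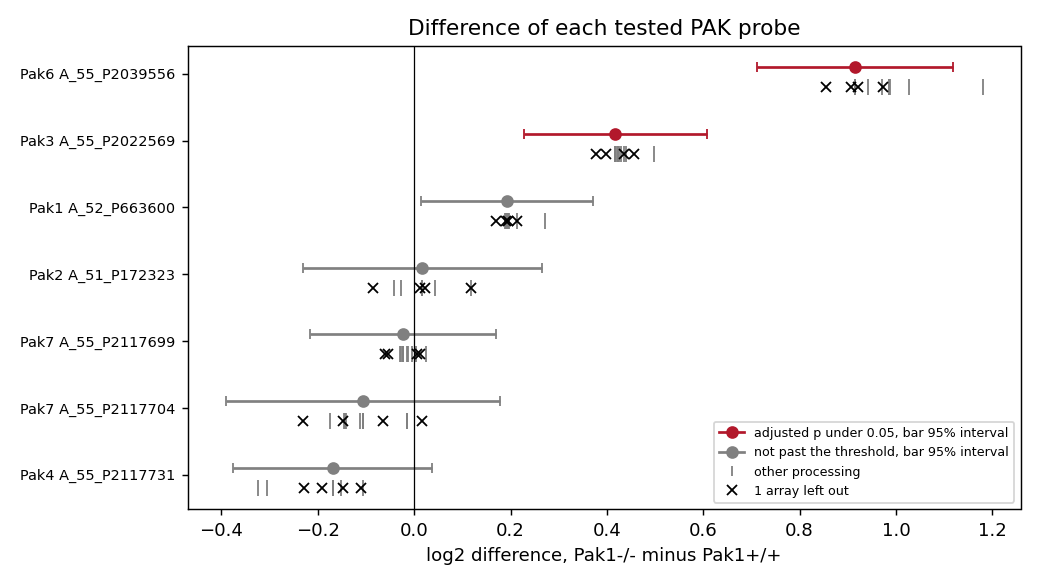
Log2 difference between Pak1-/- and Pak1+/+ (x axis) of the 7 tested PAK probes (y axis), as points with 95% intervals from limma. Ticks are values under other processing and crosses are values with 1 array left out. Pak6, Pak3 and Pak1 lie to the right of 0 and Pak4 to the left under every alternative. Pak2 and both Pak7 probes fall on both sides of 0.

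The level of each kinase within the family was expressed as its log2 intensity minus the mean of 6 PAK probes on the same array, with the brightest probe standing for Pak7. The order was Pak4, Pak2, Pak1, Pak3, Pak6 and Pak7 on all 4 arrays. Neighbors in this order were apart by 1.90 to 2.15 (Pak4 over Pak2), 1.93 to 2.24 (Pak2 over Pak1), 0.54 to 0.84 (Pak1 over Pak3), 2.27 to 2.88 (Pak3 over Pak6) and 0.51 to 1.57 (Pak6 over Pak7), all more than the largest within-group SD of these 6 probes (0.14). Probes differ in how strongly they bind and in position, so this is an order of probe signals and not of transcript amounts, and Pak4 carries the repeat described above.

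Compared between genotypes, Pak6 moved most within the family. Its relative level was −2.58 ± 0.08 in Pak1-/- and −3.27 ± 0.03 in Pak1+/+ (SD, n = 2 each), which is 0.69 higher. Pak3 was 0.19 higher relative to the family, and Pak1 differed by −0.03, with overlapping groups. Pak2, Pak7 and Pak4 had lower relative levels in Pak1-/-, by −0.21, −0.25 and −0.39. These are descriptions with no test, and a rise of 1 member lowers the relative level of the rest. With Pak4 left out of the mean the values of Pak6, Pak3, Pak1, Pak2 and Pak7 were 0.61, 0.11, −0.11, −0.29 and −0.33.

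**Figure D4:**
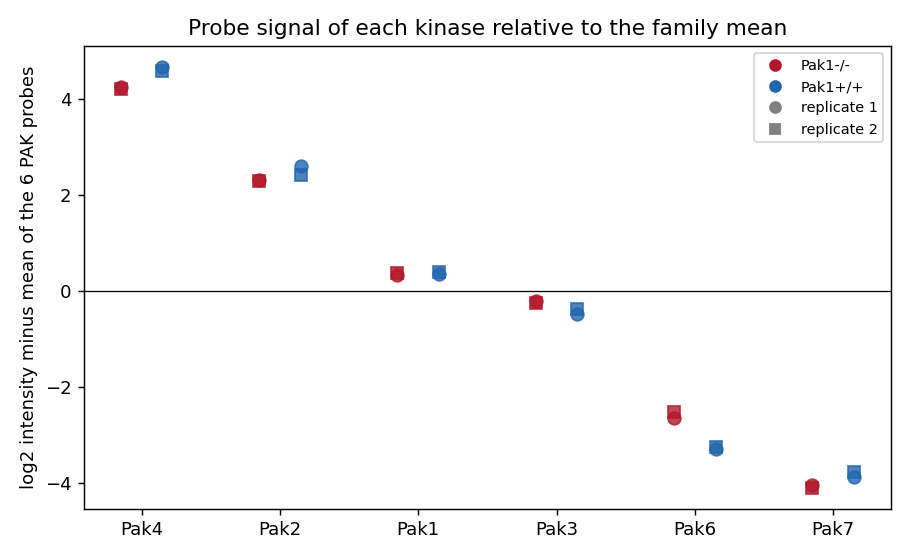
Probe signal of each kinase relative to the mean of the 6 PAK probes on the same array (y axis, log2), for each gene (x axis) and array (red Pak1-/-, blue Pak1+/+). The order of the 6 genes is the same on every array, and the gap between genotypes is widest for Pak6.

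The genes of the pathway around the kinases were then counted. Of 46 listed genes 45 were tested, and 23 of them (51.1%) were higher and 5 (11.1%) lower in Pak1-/-, against 22.8% and 28.2% of the 22014 genes tested. Their median difference was 0.34, against −0.05 over all genes. The count of higher genes was 19 to 22 with 1 array left out. The count of lower genes was 2 without Pak1-/- replicate 1, 2 without Pak1+/+ replicate 1 and 3 without Pak1+/+ replicate 2.

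Among the GTPases and the exchange factors that load them, 8 of 13 were higher and 1 was lower. Cdc42, which binds PAKs of both groups, read 16.50 and 16.59 in Pak1-/- and 15.66 and 15.71 in Pak1+/+, a rise of 0.86 (SE 0.07, limma adjusted p = 0.0013). Rac3 had the largest rise of this group, 1.47 (SE 0.08, adjusted p = 0.00034). Rac1, the other main PAK activator, was lower in the same arrays. It read 15.45 and 15.54 in Pak1-/- and 15.82 and 15.78 in Pak1+/+, a difference of −0.30 (SE 0.07, adjusted p = 0.025). A second Rac1 probe was lower by −0.48 and also passed. The call of the first Rac1 probe was lost without Pak1-/- replicate 1 (adjusted p = 0.078), Pak1+/+ replicate 1 (0.12) or Pak1+/+ replicate 2 (0.091), with cyclic loess (−0.19, 0.084) and narrowly with the replicate number as a block (0.051), while its range without 1 array was −0.35 to −0.26.

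Of the 9 adaptors and activators, 5 were higher and 1 lower. The PIX proteins are exchange factors that bind PAKs directly, and the 2 genes moved in opposite directions. Arhgef6 (alpha-PIX) read 12.44 and 12.01 in Pak1-/- and 9.19 and 9.25 in Pak1+/+, a rise of 3.01 (SE 0.16, limma adjusted p = 0.00036). Arhgef7 (beta-PIX) was 15.13 and 15.11 against 15.51 and 15.42, lower by −0.35 (SE 0.07, adjusted p = 0.016). A second Arhgef7 probe was lower by −1.04 and also passed. The call of the first Arhgef7 probe was lost without Pak1-/- replicate 1 (adjusted p = 0.055), Pak1-/- replicate 2 (0.057) or Pak1+/+ replicate 1 (0.095), and with cyclic loess (−0.21, 0.072). Git1, the scaffold that holds PIX and PAK at adhesions, was 13.47 and 13.47 against 13.46 and 13.49, with a difference of −0.0055 (SE 0.07, adjusted p = 0.95).

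Of the 6 inhibitors and phosphatases tested, 2 were higher and 1 lower, and Ppm1e was dim on all 4 arrays. The largest rise was that of Nisch (Nischarin, which binds PAK1 and restrains it), at 1.24 (SE 0.10, limma adjusted p = 0.0011). Stk11, the kinase LKB1, was lower by −0.30 (SE 0.07, adjusted p = 0.020), a call lost without Pak1-/- replicate 1 (0.063), Pak1+/+ replicate 1 (0.098) or Pak1+/+ replicate 2 (0.10). Nf2 (merlin), an inhibitor and substrate of PAKs, read 12.23 and 12.33 against 12.39 and 12.38, a difference of −0.11 that did not pass (SE 0.07, adjusted p = 0.28) and was −0.16 to −0.057 with 1 array left out, while its other probe was lower by −0.48 and passed.

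Of the 17 substrates and effectors, 8 were higher and 2 lower. The largest rise was that of Arpc1b, an Arp2/3 complex subunit that PAK1 phosphorylates. It read 15.38 and 15.56 in Pak1-/- and 11.90 and 11.99 in Pak1+/+, a rise of 3.53 (SE 0.09, limma adjusted p = 8.6e-05). Ctnnb1 (beta-catenin) had the largest fall, −0.56 (SE 0.08, adjusted p = 0.0053). Limk1, the kinase through which PAKs act on cofilin, was 11.18 and 11.13 against 11.30 and 11.50, a difference of −0.24 that did not pass (SE 0.10, adjusted p = 0.096) and was −0.35 to −0.14 with 1 array left out.

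**Figure D5:**
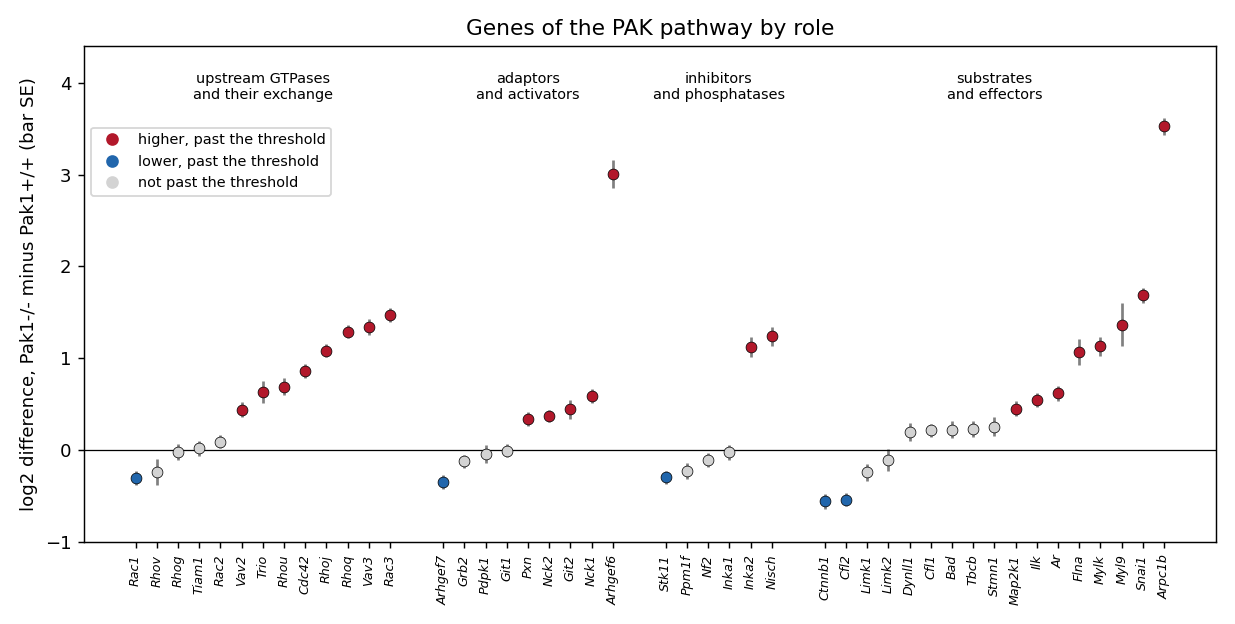
Log2 difference between Pak1-/- and Pak1+/+ (y axis) with SE for the 45 tested genes of the PAK pathway (x axis), grouped by role. Red is higher and blue lower past the threshold, and Arhgef6 and Arpc1b stand above the rest at 3.01 and 3.53.

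Some cell type markers differed between genotypes as well, and their counts are read beside 22.8% higher and 28.2% lower over all genes tested. All 4 basal mammary markers (Krt5, Krt14, Trp63 and Acta2) were higher in Pak1-/-. The log2 of their summed linear intensities was 16.17 to 16.24 against 14.16 to 14.20 in Pak1+/+, and sums below are of this kind. That sum was dominated by Krt14 (higher by 2.83). Acta2 was higher by 1.69, Krt5 by 0.50 and Trp63 by 0.43, and the median of the list was 1.10. A second Trp63 probe was higher by 1.19 and also passed. The 6 luminal markers summed to 19.84 to 19.86 against 19.47, with 3 higher and 1 lower and a median difference of 0.020. That sum was dominated by Krt8 and Krt18, higher by 0.57 and 0.27. Cdh1 was higher by 1.185 and Erbb2 lower by −0.31, while Epcam (−0.23) and Krt19 (−0.64) did not pass. Krt19 was not well above background on every array. Of the 3 adipocyte markers none was bright enough to be tested (summed 8.04 to 8.14 against 8.34 to 8.36), and Adipoq was dim on all 4 arrays. The fibroblast list had 1 of 3 tested markers higher, with summed levels of 10.09 to 10.33 against 9.81 to 9.88, and Pdgfrb and Dcn were dim throughout. By the brightest probe of each gene, the endothelial list had none of 3 past the threshold (limma, 0 also at an unadjusted p under 0.05), though a second Kdr probe was higher by 1.37 and passed, with summed levels of 13.28 to 13.33 against 13.13 to 13.40. The leukocyte list had 1 of 4 tested lower, and its sum (15.62 to 16.15 against 15.33 to 15.50) was dominated by an Itgam probe that holds a CA repeat. The neuronal list, of interest for Pak3 and Pak7, had none of 2 tested past the threshold by the brightest probe (limma, 0 also at an unadjusted p under 0.05), though a second Map2 probe was higher by 0.41 and passed. Its summed level was 15.23 to 15.68 against 14.88 to 15.10, dominated by a Snap25 probe with a CA repeat, while Tubb3 and Syt1 were dim on every array. The part of these marker differences in the PAK and pathway values was not tested.

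The genes whose centered values lay nearest to each PAK gene over the 4 arrays were found by Euclidean distance. Nearest to Pak6 were Rnf11 (0.025 log2), Optn (0.027) and Pros1 (0.028). Nearest to Pak3 were Atox1 (0.013), Pop1 (0.015) and Peg13 (0.015), and nearest to Pak1 were Vps41 (0.0034), Snhg6 (0.011) and Eno1b (0.012). Such likeness is common with 4 arrays, since 116 probes lay within 0.1 of Pak6, 540 within 0.1 of Pak3 and 1019 within 0.1 of Pak1. The genomic surroundings were also examined, a choice made after the values were seen. Counts are of tested genes within 1 Mb of each probe on mm9, beside 22.8% higher and 28.2% lower over all genes. Near Pak1 4 of 36 were higher and 12 lower, near Pak2 14 of 36 were higher and 8 lower, and near Pak3 1 of 10 was higher and 3 lower. Near Pak4 19 of 78 were higher and 22 lower, near Pak6 8 of 52 were higher and 21 lower, and near Pak7 4 of 9 were higher and 0 lower.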

How the data were processed

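The deposited per-array files give, per the file headers, the linear intensity of each spot from Agilent Feature Extraction 9.5.3.1, its local background and quality flags, before any normalization across arrays. A log2 table that the authors deposited is the second kind of file, which their methods describe as normexp corrected and quantile normalized. Its offset is not given in the sources used here. It tracked the values below (lowest r 0.9998 across probes, which are not independent). Values were computed with limma 3.58.1 (R 4.3.3). Steps were normexp on all spots with an offset of 50, removal of control spots, log2, quantile normalization, removal of outlier spots and averaging of each probe's spots. Offsets understate changes of dim probes. Probes that were well above background in 2 or more of the 4 arrays (27229) were tested with lmFit and eBayes, two-sided, with genotype as the only term and Benjamini-Hochberg adjustment at 0.05. The test had 2 residual degrees of freedom plus a prior of 2.62. An exact permutation test of 2 against 2 cannot go below p = 0.333 and was not used. With 4 arrays, precision is limited by their number. The scripts were tested on simulated data.

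Probes were named through RefSeq accessions (26055 of 32334 matched, GRCm38.p6 names only). For pathway and marker genes the brightest tested probe was used. The members and lists were chosen with earlier results of these data known. Named genes were every member probe, 6 pathway genes chosen by role (Rac1, Cdc42, Arhgef7, Git1, Nf2 and Limk1; 1 further pathway gene of the rule is not reported here), the largest rise and fall past the threshold in each role group, and the 3 genes nearest to Pak1, Pak3 and Pak6. Replicate numbers came from the titles. The differences between replicates 1 and 2 correlated at −0.03 between groups across probes, so no broad effect shared by number was seen. This cannot show that the samples were unpaired, and the replicate number was fitted as a block among the alternatives. Alternatives were other offsets, background corrections, normalizations, filters and thresholds, an intensity trend, the replicate block and leaving out each array.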

Additional observations from a re-analysis of the deposited data

Results flagged for a closer look

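The Pak7 probe A_55_P2183979 was outside the tested probes because it was well above background on 1 array only. On that array, Pak1-/- replicate 1, it read 8.07 on the normalized log2 scale, above both Pak1+/+ arrays (6.26 and 6.14) and above the other Pak1-/- array (6.23). Its group means were 7.15 ± 1.30 in Pak1-/- and 6.20 ± 0.09 in Pak1+/+ (SD, n = 2 each). The array that carries the signal is 1 spot, and whether it came from Pak7 transcript was not tested.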

How the results depend on the processing

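Pak6 kept its direction and call in every alternative, and Pak3 kept its direction in all and its call in all but the one without Pak1+/+ replicate 1. With 1 array left out, the number of PAK probes past the threshold was 1 to 2 (37.9% to 44.7% of all probes were called in these fits) and the pathway genes lower were 2 to 4, while the differences ranged from 0.38 to 0.46 for Pak3, −0.085 to 0.12 for Pak2, −0.23 to −0.11 for Pak4, −0.060 to 0.013 for Pak7 probe A_55_P2117699, −0.23 to 0.016 for Pak7 probe A_55_P2117704 and −0.021 to 0.010 for Git1. In these fits the lone array of a group is assumed to vary like the others. Scaling to the 75th percentile turned Pak2 to −0.041 with processed signals and −0.027 with normexp, turned Pak7 probe A_55_P2117699 to 0.0037 with processed signals, and took Pak4 to −0.31 (adjusted p = 0.054) with processed signals and to −0.32, past the threshold, with normexp. Cyclic loess brought Pak1 past the threshold at 0.27, turned Pak7 probe A_55_P2117699 to 0.024 and Git1 to 0.086, took Pak4 to −0.11, Limk1 to −0.155 and Nf2 to −0.020, and left 3 pathway genes lower, with the Arhgef7 and Rac1 calls lost (−0.21 and −0.19). An adjusted p under 0.01 left 2 pathway genes lower, and an unadjusted p under 0.05 called Pak1 at 0.19. The cause was not tested in these cases, apart from the thresholds and left-out arrays, where the calls change by construction. The replicate block kept 2 PAK probes past the threshold, with 23 pathway genes higher and 4 lower, and took only the Rac1 call among the named genes (−0.30, adjusted p = 0.051). The within-family change of Pak6 ranged from 0.61, with Pak4 left out of the mean (an alternative chosen after seeing the data), to 0.94. The Pak7 probe A_55_P2117704 was near background, with an interval of −0.39 to 0.18, and its difference was −0.17 with an offset of 0, −0.016 without background correction and −0.014 in the deposited table.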
